A study of Homo sapiens with 2 samples.

Results

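The HOX genes are 39 protein-coding genes, found by symbol (HOX, a cluster letter from A to D, and a number) among 19974 protein-coding genes on chromosomes 1 to 22 and X in RefSeq's table for GRCh38.p14. They fall into 11 HOXA genes on chromosome 7, 10 HOXB genes on chromosome 17, 9 HOXC genes on chromosome 12 and 9 HOXD genes on chromosome 2. R-loop CUT&Tag was carried out in wild-type A549, a cell line long established from a human lung carcinoma, with no treatment stated in the labels. It used S9.6, an antibody against RNA-DNA hybrids, or non-specific IgG, with 1 library each. Only the S9.6 peak list was used, and IgG was not analysed here. Of the 47810 S9.6 peaks deposited, 45756 lay on chromosomes 1 to 22 and X, and 29 of these lay over the HOX clusters. There was no replicate, so no samples were compared by a test, and the 95% intervals below cover counting error only. A549 is known to have lost the tumour suppressor gene CDKN2A, and no peak was listed over CDKN2A and its neighbour CDKN2B, the nearest being 182 kb away.

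HOX genes encode homeodomain transcription factors that give cells their position along the head-to-tail axis of the embryo. Within each cluster the genes are transcribed in the same direction, and their order on the chromosome follows the order in which they are used along the body. The genes numbered 1 lie at the 3′ end of the cluster and act towards the head, and those numbered 13 lie at the 5′ end and act towards the tail. Genes with the same number in different clusters form a paralog group, descended from 1 ancestral gene. In many adult cells parts of the clusters are kept silent by Polycomb proteins, while other parts stay active and preserve a record of where in the body the cell came from. R-loops form where a nascent RNA pairs back with its DNA template, often near gene starts rich in C and G. The signal was therefore followed both by cluster and by position from group 1 to group 13.

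Start windows that met a peak at a HOX gene give the sequence context of these data. Each window runs from 250 bases before a gene's start to 50 bases after it, read 5′ to 3′ on the gene's own strand (RefSeq, GRCh38.p14). RefSeq's table of starts held 20 of the 39 HOX genes, with 26 distinct windows, and 1 of these windows overlapped a peak. It belongs to an internal start of HOXA3, at chr7:27150901-27151200 on the minus strand. The next pair of windows belongs to lncRNA starts inside the peaks at HOXB2 and HOXD8: HOXB-AS1 (chr17:48544101-48544400, plus strand) and LOC100129455 (chr2:176130479-176130778, minus strand). Capitals mark the bases covered by the S9.6 peak, which are 280 of 300 for HOXA3, 300 of 300 for HOXB-AS1 and 272 of 300 for LOC100129455. The starts of PRAC1 and PRAC2, beside HOXB13, also met a cluster peak, with 300 and 64 bases covered, and are not printed because that peak lay outside the HOX genes.
HOXA3: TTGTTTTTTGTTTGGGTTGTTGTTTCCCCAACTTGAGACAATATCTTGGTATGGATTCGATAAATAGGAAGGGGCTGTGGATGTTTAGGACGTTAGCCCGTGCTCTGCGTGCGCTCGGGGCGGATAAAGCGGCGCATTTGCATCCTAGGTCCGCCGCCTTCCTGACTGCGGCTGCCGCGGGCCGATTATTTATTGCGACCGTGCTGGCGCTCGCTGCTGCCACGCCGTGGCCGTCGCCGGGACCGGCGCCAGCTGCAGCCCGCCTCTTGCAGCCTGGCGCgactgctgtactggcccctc
HOXB-AS1: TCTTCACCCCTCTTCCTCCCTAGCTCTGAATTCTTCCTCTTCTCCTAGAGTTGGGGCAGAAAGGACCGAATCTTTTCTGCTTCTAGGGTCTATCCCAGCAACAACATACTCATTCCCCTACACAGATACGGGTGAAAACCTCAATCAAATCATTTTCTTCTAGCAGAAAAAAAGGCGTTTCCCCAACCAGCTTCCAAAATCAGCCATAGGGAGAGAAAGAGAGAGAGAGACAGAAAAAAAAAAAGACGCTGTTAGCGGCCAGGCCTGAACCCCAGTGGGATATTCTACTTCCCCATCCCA
LOC100129455: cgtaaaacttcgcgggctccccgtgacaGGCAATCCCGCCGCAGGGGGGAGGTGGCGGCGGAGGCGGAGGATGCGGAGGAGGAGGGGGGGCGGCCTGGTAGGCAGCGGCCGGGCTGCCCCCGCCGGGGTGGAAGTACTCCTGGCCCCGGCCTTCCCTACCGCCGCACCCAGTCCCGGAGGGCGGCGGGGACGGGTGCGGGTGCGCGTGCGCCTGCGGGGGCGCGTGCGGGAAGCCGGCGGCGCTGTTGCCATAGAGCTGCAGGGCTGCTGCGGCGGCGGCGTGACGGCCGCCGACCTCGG
The window after these is the shared start of HOXC4 and HOXC5 (chr12:54016638-54016937, plus strand), shown because a pair of peaks begins 267 bases after its end. The last is the listed start of HOXD3 (chr2:176157057-176157356, plus strand), a paralog of HOXA3 with no peak within 1000 bp of that start. In both, capitals mark runs of 4 or more G.
HOXC4 and HOXC5: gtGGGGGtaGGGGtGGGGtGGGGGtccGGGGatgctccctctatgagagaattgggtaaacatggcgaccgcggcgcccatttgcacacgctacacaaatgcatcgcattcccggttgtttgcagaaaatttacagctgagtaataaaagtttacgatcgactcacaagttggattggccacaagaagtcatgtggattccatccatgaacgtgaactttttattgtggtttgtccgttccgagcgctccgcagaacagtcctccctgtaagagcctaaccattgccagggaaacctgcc
HOXD3: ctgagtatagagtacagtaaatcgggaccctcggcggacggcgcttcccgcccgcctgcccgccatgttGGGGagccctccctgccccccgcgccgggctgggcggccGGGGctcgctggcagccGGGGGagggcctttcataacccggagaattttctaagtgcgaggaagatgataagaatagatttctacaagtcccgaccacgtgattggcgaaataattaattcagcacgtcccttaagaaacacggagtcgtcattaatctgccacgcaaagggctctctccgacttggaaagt
The HOXC4 and HOXC5 window opens with 5 such runs close together, and the HOXD3 window has 3.

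A boundary peak, meaning a peak with at least 1 base within 1000 bp of either end of the gene's span, was found for 14 of the 39 HOX genes. That is 35.9% (95% Wilson interval 22.7 to 51.6), beside 40.1% of all 19974 protein-coding genes, so the share over all HOX genes at this window was near the background. The 14 were HOXA5 and HOXA11, then HOXB2, HOXB3, HOXB4, HOXB5 and HOXB9, then HOXC4, HOXC5, HOXC6, HOXC8, HOXC9 and HOXC13, and last HOXD8. Each had exactly 1 boundary peak. These 14 calls rested on 11 distinct peaks, because HOXC4, HOXC5 and HOXC6 share a peak and HOXB3 and HOXB5 share another. HOX genes are short, 33 of the 39 spanning at most 10 kb, and 10 of these 33 (30.3%, interval 17.4 to 47.3) had a boundary peak beside 38.4% of all protein-coding genes of that length.

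The HOX boundary peaks were low. Their maximum coverage, the highest signal value within the peak, a whole number with no scaling stated in the sources used here, had a median of 3 over the 14 genes and ran from 2 to 7. Only HOXC13, at 7, reached 5. Among the 7987 other protein-coding genes with a boundary peak the median was 4, and 36.2% reached 5. When only peaks whose maximum was 3 or more were kept, 10 of 39 HOX genes (25.6%, interval 14.6 to 41.1) had a boundary peak beside 32.2% of all protein-coding genes. A further 5 HOX genes had a peak elsewhere over the span (HOXA3, HOXA10, HOXB6, HOXB7 and HOXD3), which made 19 of 39 with a peak anywhere over the span and 1000 bp beyond each end (48.7%, interval 33.9 to 63.8) beside 60.4%. No peak was listed there for the other 20.

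**Figure D1:**
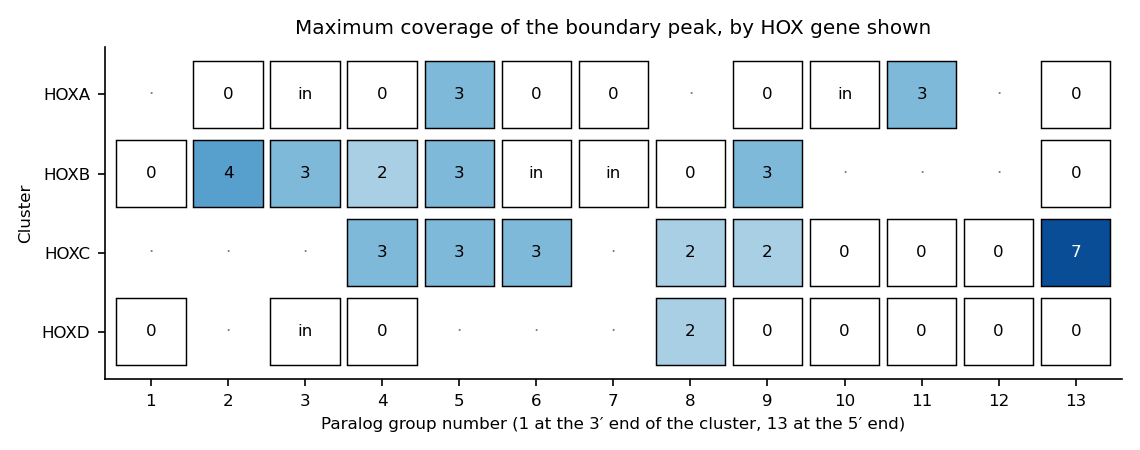
Each square is a HOX gene, placed by cluster (rows) and paralog group (columns), and its number is the maximum coverage of its boundary peak; "in" marks a peak over the span but not at a boundary, 0 marks neither, and a dot means that no gene is shown there. HOXC13 has the highest value, 7, and HOXB2 follows with 4, while the HOXD row holds 1 value, 2 at HOXD8.

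The size of the window mattered for these counts. With 500 bp in place of 1000 bp, 9 of 39 HOX genes had a boundary peak (23.1%, interval 12.6 to 38.3), below the 35.3% of all protein-coding genes. With 2000 bp it was 23 of 39 (59.0%, 43.4 to 72.9), above the 45.8% of all protein-coding genes. The side of the background on which the HOX share fell thus turned with the window, and each interval contains its background. Just outside the 1000 bp limit were HOXB7, whose peak lay 1004 bp from an end, HOXA3 at 1108 bp and HOXA10 at 1217 bp. Just inside it were HOXC9 at 980 bp and HOXC8 at 736 bp.

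In the HOXC cluster 6 of 9 genes had a boundary peak (66.7%, interval 35.4 to 87.9, which contains the 40.1% of all protein-coding genes). HOXC13, a regulator of hair keratin genes at the 5′ end of the cluster, had the highest HOX peak. It lay on chromosome 12 from 53937870 to 53939199, was 1330 bp wide, reached a maximum of 7 and summed to a total signal of 3257. It covered the start-side end of HOXC13 and lay inside the overlapping lncRNA gene HOXC13-AS, within 1000 bp of an end of it. On the scale of the whole library, 96.2% of peaks had a lower maximum. At the other side of the cluster HOXC4, HOXC5 and HOXC6, genes of the neck and thoracic level, share a single upstream end at 54016888 in RefSeq. A peak of maximum coverage 3 lay 316 bp inside that end, from 54017204 to 54017715. A second one, of maximum coverage 4 and total signal 1881, followed at 54017954 to 54018951 and missed the boundary window of these 3 genes by being 1066 bp inside. Both lay within 1000 bp of an end of the lncRNA gene LOC124902939, and another peak, of maximum coverage 2, lay deeper inside all 3 genes, at 54028258 to 54029201.

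The thoracic genes HOXC8 and HOXC9 had a peak of maximum coverage 2 each, lying inside the gene, with total signals of 812 and 798. HOXC10, HOXC11 and HOXC12 had none within 1000 bp of their spans. HOXC12 lay within 31.7 kb free of peaks, and HOXC10 and HOXC11 together within 26.1 kb. HOTAIR, a lncRNA gene that lies between HOXC12 and HOXC11 and overlaps HOXC11, known for its link to Polycomb, carried 1 peak of maximum coverage 3 inside its span, at 53970896 to 53971296. When HOXC4, HOXC5 and HOXC6 are counted once, 4 of 7 HOXC entries (57.1%, interval 25 to 84.2) and 12 of 37 HOX entries (32.4%) had a boundary peak.

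In the HOXB cluster 5 of 10 genes had a boundary peak (50%, interval 23.7 to 76.3, which contains the 40.1% of all protein-coding genes). A peak over the span was found for 7 of 10, beside 60.4% of all protein-coding genes. HOXB2, a hindbrain gene, had the highest, reaching 4 with a total signal of 1554, on chromosome 17 from 48543632 to 48544427. It lay within 1000 bp of both ends of this short gene and covered the start window of HOXB-AS1 shown above. HOXB3 and HOXB5 met the same peak, which was 1013 bp wide, reached 3 and summed to 1727. It lay 492 bp beyond the upstream end of HOXB3 and over the downstream end of HOXB5. HOXB9 also reached 3, with a total signal of 1723, 86 bp inside its upstream end. HOXB4, known for its role in blood stem cells, had a peak of maximum coverage 2, lying 247 bp beyond its downstream end. The RefSeq span of HOXB3, 41372 bp long, contains HOXB4, and with 1000 bp on each side it met 5 peaks in all, more than any other HOX gene.

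Peaks lay inside HOXB6 (maximum coverage 2) and HOXB7 (3) without touching a boundary window. HOXB1, the most 3′ gene, and HOXB8 had none. HOXB13, best known from the prostate, stands apart from the rest of the cluster, and its nearest peak was 1765 bp from its span, at the neighbouring gene PRAC1. The stretch of 98.4 kb between HOXB9 and HOXB13 held 3 peaks, while the 97.8 kb from HOXB1 to HOXB9 held 10.

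In the HOXA cluster 2 of 11 genes had a boundary peak (18.2%, interval 5.14 to 47.7, which contains the 40.1% of all protein-coding genes). HOXA5, a gene needed for lung development, had a peak over its start on chromosome 7 from 27143277 to 27143831, reaching 3 with a total signal of 758. HOXA11, known from kidney, forearm and uterus, had 1 of maximum coverage 3 and total signal 1176, 658 bp inside its downstream end. HOXA10, another gene of the uterus, carried 2 peaks of maximum coverage 2 inside its span, and the second began 36 bp from the window of its internal start. HOXA3, whose RefSeq span of 45574 bp also contains HOXA4, HOXA5 and HOXA6, had 2 peaks over it: that at HOXA5, and a peak of maximum coverage 2 at the internal start printed above. Another peak of maximum coverage 3 lay between HOXA7 and HOXA9.

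HOXA2 and HOXA4, genes of the hindbrain and neck, lay in a stretch of 58.2 kb without a peak. HOXA13, a gene of the digits and the genital tract, lay in another of 94.6 kb that continued beyond the cluster. HOXA6, HOXA7 and HOXA9, the last known from blood stem cells and leukaemia, had no peak within 1000 bp, though peaks lay 1565, 2241 and 1637 bp from their spans. The 6 HOXA peaks therefore sat in the middle and 5′ part of the cluster.

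In the HOXD cluster 1 of 9 genes had a boundary peak (11.1%, interval 1.99 to 43.5, which contains the 40.1% of all protein-coding genes). That gene was HOXD8, whose peak reached 2, summed to 754 and lay 600 bp inside its start, on chromosome 2 from 176130305 to 176130750. The same peak covered most of the start window of the antisense lncRNA gene LOC100129455. The only other HOXD peak lay inside HOXD3, reaching 2 with a total signal of 1356. HOXD9 to HOXD13, which pattern limbs and the genital region, all lay in 50.9 kb without a peak. HOXD4 lay within 39.6 kb without one, and HOXD1 within 56.2 kb. The 2 HOXD peaks were at the lowest maximum coverage seen over the clusters.

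**Figure D2:**
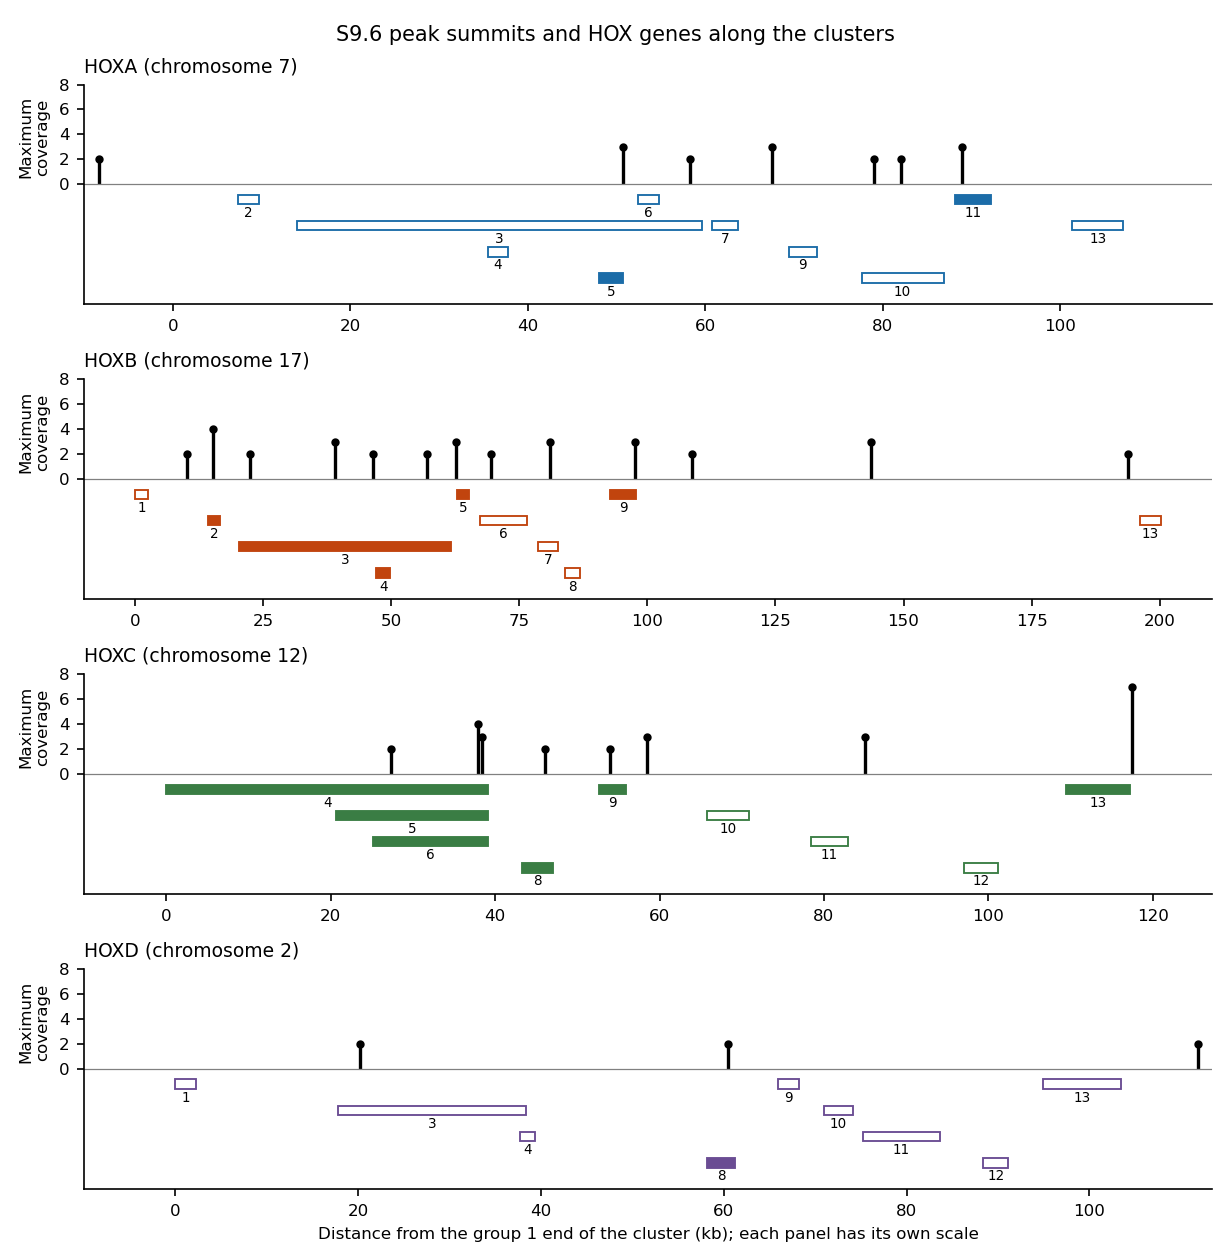
The 4 clusters are drawn from the group 1 end (left) to the group 13 end, with distance in kb on the horizontal axis and the maximum coverage of each S9.6 peak at its summit as a vertical line. Boxes are the spans of the genes reported, with their group number, on several levels only so that they do not overlap, filled where the gene has a boundary peak; HOXB9 and HOXB13 are separated by 98.4 kb, and the HOXD panel has 2 peaks over the cluster.

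The clusters were next compared by peak density. Over their spans, measured between the outermost HOX gene ends, there were 6 peaks in 107 kb for HOXA, 13 in 200 kb for HOXB, 8 in 117 kb for HOXC and 2 in 103 kb for HOXD. Per 100 kb this gave 5.60 (exact 95% Poisson interval 2.06 to 12.2), 6.49 (3.46 to 11.1), 6.83 (2.95 to 13.4) and 1.93 (0.234 to 6.99). All 4 intervals overlap, so the lower value of HOXD was not separated from the others at this number of peaks. Peaks covered 3.23% of the HOXA span, 5.01% of HOXB, 4.15% of HOXC and 1.31% of HOXD. From HOXB1 to HOXB9 alone the density was 10.2 per 100 kb (4.90 to 18.8).

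All 4 clusters together held 29 peaks in 528 kb, or 5.49 per 100 kb (3.68 to 7.89). The 100 kb on each side of the clusters held 13 in 800 kb, or 1.63 (0.865 to 2.78), and the value over chromosomes 1 to 22 and X was 1.51. The HOXA, HOXB and HOXC clusters each had a higher value than their flanks, which had 2 (0.545 to 5.12), 1.5 (0.309 to 4.38) and 1 (0.121 to 3.61) peaks per 100 kb, but in each the intervals of cluster and flanks overlap. The HOXD flanks had 2. As counted over whole cluster spans, only the pooled intervals of all 4 clusters and all flanks did not overlap. The interval of HOXB1 to HOXB9 alone (4.90 to 18.8) also lay above that of the HOXB flanks, but this part leaves out the 98.4 kb before HOXB13. The HOXC13 peak crosses the end of the HOXC cluster and was counted both in the cluster and in its flanks. It is 1 of the 2 HOXC flank peaks and 1 of the 13 over all flanks, so both flank values include it. The overlap stated for HOXC depends on counting it in the flanks. Chromosome 17 as a whole had 4.05, and chromosomes 7, 12 and 2 had 1.48, 1.58 and 1.51. The clusters are also dense in genes, with 4.99 HOX genes per 100 kb in HOXB and 7.68 to 10.3 in the others. Among 499 bins of 100 kb with the middle of at least 5 protein-coding genes, the median was 7 peaks, and the middle 50% of bins ran from 3 to 12. HOXA and HOXC lay within that middle range, and HOXD, at 1.93, lay below it. The bins count all protein-coding genes, and the HOXB span also holds the protein-coding genes PRAC1 and PRAC2. With these added to its 4.99 HOX genes per 100 kb, HOXB falls in the same class, and its 6.49 peaks lay within the middle range. The 3760 bins with 2 to 4 genes had a median of 2, and their middle 50% ran from 1 to 5. Of the bins with at least 5 genes, 22.6% held 2 peaks or fewer.

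**Figure D3:**
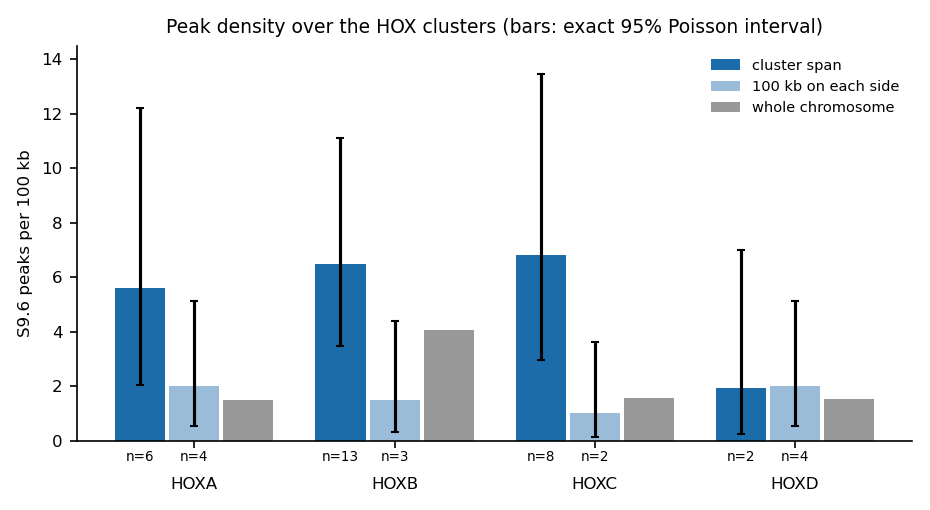
Bars give S9.6 peaks per 100 kb over each cluster span, over the 100 kb on each side and over the whole chromosome; error bars are exact 95% Poisson intervals and n is the number of peaks. HOXA, HOXB and HOXC stand at 5.60 to 6.83 over the cluster, and HOXD at 1.93 beside 2 in its flanks. The HOXC13 peak crosses the cluster end and is counted in both the HOXC cluster bar and the HOXC flank bar.

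The peaks over the clusters were of ordinary size for this library. Their median width was 635 bp and median total signal 966, beside 685.5 bp and 986 for all peaks. Their median maximum coverage of 2 was also that of all peaks. Of the 29, 14 (48.3%) reached a maximum of 3, beside 45.4% of all peaks, and 1 reached 5, beside 9.54%. By summit, the middle of the authors' region of highest coverage, 8 lay within 1000 bp of a HOX gene end, 14 elsewhere inside a HOX gene and 7 between HOX genes. The windows around HOX gene ends together make up 145 kb, beside 528 kb of cluster span. HOX genes fill from 37.0% (HOXB) to 71.0% (HOXA) of the spans. Whether the counts depart from these lengths was not tested.

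By position from 3′ to 5′, boundary peaks of any height were found for 2 of 8 genes in groups 1 to 3 (25%, interval 7.15 to 59.1), 8 of 15 in groups 4 to 8 (53.3%, 30.1 to 75.2) and 4 of 16 in groups 9 to 13 (25%, 10.2 to 49.5). The intervals overlap, and each contains the 40.1% of all protein-coding genes. The higher share of the middle groups rested on low peaks. With peaks of maximum 3 or more the counts were 2 of 8, 5 of 15 (33.3%) and 3 of 16, beside 32.2% of all protein-coding genes. With peaks above the median total signal they were 2 of 8 (25%), 4 of 15 (26.7%) and 3 of 16 (18.8%), beside 30.4%. The middle groups thus hardly differed from groups 1 to 3 in that setting. With HOXC4, HOXC5 and HOXC6 counted once, groups 4 to 8 had 6 of 13 (46.2%, 23.2 to 70.9). Among groups 4 to 8, the 4 HOXC genes all had a boundary peak, compared with 2 of 5 in HOXB, 1 of 4 in HOXA and 1 of 2 in HOXD.

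Over single paralog groups, all 3 members of group 5 had a boundary peak (HOXA5, HOXB5 and HOXC5). No member did in group 7 (HOXA7 and HOXB7), group 10 (HOXA10, HOXC10 and HOXD10) or group 12 (HOXC12 and HOXD12). In group 13, HOXC13 had one, and HOXA13, HOXB13 and HOXD13 had none. Groups have 2 to 4 members, so these counts describe the genes and carry little precision.

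Dividing each span into 3 equal lengths gave another view of position. The parts nearest group 1 held 11 summits in all, the middle parts 11 and the parts nearest group 13 held 6, in 176 kb each. The summit of the HOXC13 peak lay just beyond the cluster end and is not among them. The order differed by cluster: HOXA had 0, 3 and 3 summits from 3′ to 5′, HOXB had 7, 4 and 2, HOXC had 3, 3 and 1, and HOXD had 1, 1 and 0. In HOXB the part nearest group 13 is mostly the gap before HOXB13. HOXC has no gene of groups 1 to 3, and its part nearest group 1 lies within the span of HOXC4. The parts therefore do not hold the same paralog groups in each cluster.

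Start and end of the genes were then separated. In RefSeq's table of starts all 20 listed HOX genes run from the group 13 side towards the group 1 side, and for 18 of them a listed start is that outer end of the span. Of the 39 ends on the start side, 10 had a peak within 1000 bp (25.6%, interval 14.6 to 41.1), beside 36.0% of 15812 protein-coding genes with a strand in the table. Of the 39 opposite ends, 5 did (12.8%, interval 5.60 to 26.7), beside 11.4%. The start-side peaks were at HOXA5, HOXB2, HOXB3, HOXB9, HOXC4, HOXC5, HOXC6, HOXC8, HOXC13 and HOXD8. The others were at HOXA11, HOXB2, HOXB4, HOXB5 and HOXC9. Only the peaks at HOXA5 and HOXC13 covered the start-side end itself.

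Non-coding genes share the clusters with the HOX genes. Within the spans or 10 kb of them, 8 of 28 lncRNA genes had a boundary peak (28.6%, interval 15.3 to 47.1), beside 18.2% of all 18177 lncRNA genes, a share within that interval. These were HOXC13-AS (maximum coverage 7), HOXB-AS1 and LOC124902939 (4 each), HOXB-AS3 and HOXC-AS2 (3 each), and HOXA10-AS, HOXBLINC and LOC100129455 (2 each). Of these 8, 5 met the same peak as a HOX boundary, and since the peak list gives no strand, the genes that share a peak cannot be told apart. The exceptions were HOXA10-AS, whose peak lay inside HOXA10, HOXBLINC, whose peak lay inside HOXB3, and HOXC-AS2, whose peak lay between HOXC9 and HOXC10. No boundary peak was listed at HOTAIRM1 or HOTTIP, lncRNA genes at the 3′ and 5′ ends of HOXA, or at HAGLR in HOXD. None of the 8 microRNA genes had one, among them MIR10A, MIR10B, MIR196A1, MIR196A2, MIR196B and MIR615, beside 18.3% of all 1911 microRNA genes; 0 of 8 allows a share of up to 32.4% (Wilson). Of 4 other protein-coding genes, PRAC1 had one (2), and EVX2, a homeobox gene beside HOXD13, had a peak inside its span alone.

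The start windows of HOX genes were described by their base composition. The 26 windows had a median GC content of 58% (range 43.7% to 76.3%) and a median of 22.5 CpG dinucleotides, beside 62.3% and 21 for 22012 windows of protein-coding genes. Alternative starts of HOXA3 gave 7 of the 26 windows and those of HOXA10 gave 2. Medians and shares over the 26 therefore weigh HOXA3 most and are not values per gene. Of the 26, 4 had a peak within 1000 bp of the start (15.4%, beside 35.6%), with a median GC content of 61.7% compared with 57.3% for the other 22. They are the HOXA3 and HOXC4 windows above, the internal start of HOXA10 and the start of HOXD8. The run GGGG on the gene's strand was in 23 of 26 HOX windows, and in 81.1% of all windows. A pattern of 4 runs of at least 3 G, spaced 1 to 7 bases apart on either strand, of the kind that can fold into a G-quadruplex, was in 8 of 26 (30.8%), and in 30.4% of all windows. Among the 4 windows with a nearby peak only that of HOXC4 and HOXC5 had this pattern. The windows richest in GC, those of HOXA13 (76.3%, 44 CpG), HOXD1 (74.3%, 36 CpG) and HOXD13 (74%, 24 CpG), had no peak within 1000 bp. Starts of 19 HOX genes, including all but HOXB1 in HOXB and all but HOXC4 and HOXC5 in HOXC, were not used here.

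Proteins that work with the HOX factors or control the clusters were taken from lists. Of 9 genes for HOX cofactors, homeodomain proteins that bind DNA beside HOX proteins, 4 had a boundary peak (44.4%, interval 18.9 to 73.3), near the 40.1% of all protein-coding genes: PKNOX1 (maximum coverage 9), PBX3 (8), and MEIS2 and PKNOX2 (3 each). MEIS1 had no peak, and MEIS3 had a peak inside the span alone. Of 19 Polycomb genes, whose products silence HOX genes, 9 had one (47.4%, 27.3 to 68.3), also near that share, with SUZ12 at 7 and RBBP4 at 6, while CBX2 and CBX8 had no peak. Of 12 genes of the opposing Trithorax-type methyltransferases, H3K27 demethylases and the architectural proteins CTCF and RAD21, 9 had one (75%, 46.8 to 91.1), an interval above 40.1%. The lists were chosen with earlier results of these data known, so this describes the listed genes and was not tested. KMT2B reached 10, CTCF 8 and DPY30 6. Median heights among those with a peak were 5.5 for the cofactors and 5 for both lists of regulators, beside 4 for the protein-coding genes other than HOX and 3 for the HOX genes.

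Related gene families gave further points of comparison, as shares of genes with a boundary peak. Other homeobox genes related to the clusters, such as the DLX, CDX and EN genes, had 9 of 21 (42.9%, 24.5 to 63.5), led by DLX2 (6), DLX3 (5) and DLX1 (4). Forkhead genes, a family of transcription factors that is mostly scattered, had 16 of 51 (31.4%, 20.3 to 45), led by FOXA2 and FOXN2 (8 each) and FOXA3 (7). Keratin genes, which lie in clusters, had 16 of 55 (29.1%, 18.8 to 42.1), led by KRT8 (6). The intervals of these 3 families overlap that of the HOX genes. Clustered protocadherins had 2 of 53 (3.77%, 1.04 to 12.8), PCDHAC1 (5) and PCDHAC2 (3), an interval that does not overlap that of the HOX genes. A peak over the span was nevertheless found for 38 of these 53 (71.7%, 58.4 to 82.0). That stands beside 60.4% of all protein-coding genes and 48.7% of the HOX genes. Many protocadherin spans share an end, so their genes are not independent counts.

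**Figure D4:**
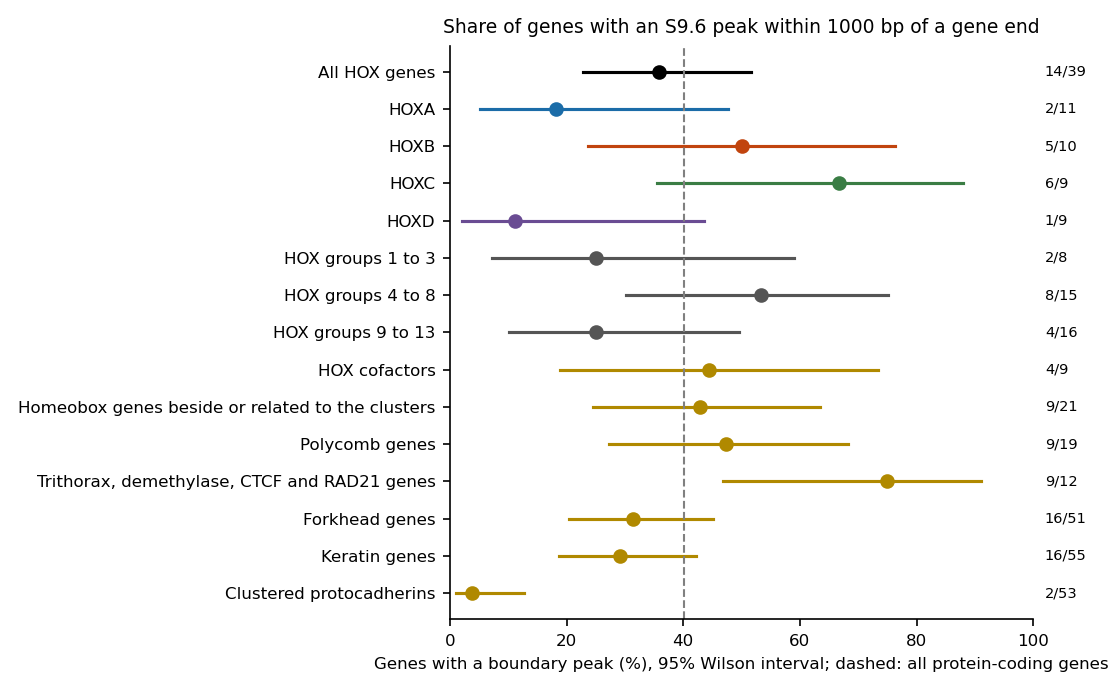
Points give the share of genes with an S9.6 boundary peak and lines its 95% Wilson interval, with counts at the right; the dashed line is the 40.1% of all protein-coding genes. HOXC lies at 66.7% and HOXD at 11.1%, with all HOX genes at 35.9%. The intervals of HOXC, HOXD and all HOX genes cross the dashed line.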

How the data were processed

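CUT&Tag libraries with S9.6 or IgG were made from A549 cells, and the S9.6 peak list was analysed. The authors' deposited peak values are signal: a total signal and a maximum coverage per peak, all whole numbers. Per the submitters' processing notes, the tools were SEACR 1.3, deepTools 3.5.2, bedtools 2.30.0, SAMtools 1.9, Bowtie2 2.4.2 and fastp 0.23.2 and the build was GRCh38, without roles. The sources used here do not give the peak threshold, the control or how duplicate reads were treated. The number of reads is unknown, so a gene without a peak may have signal below the threshold.

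Gene spans, starts and sequences came from RefSeq tables of GRCh38.p14. Boundaries were 1000 bp on each side of both span ends. Shares carry Wilson intervals and densities exact Poisson intervals (scipy 1.17.1, pandas 2.3.3, Python 3.11.15). The counting was checked on simulated data with a peak at 200 genes, and found all 200 and 0 others. Counting of a peak shared by several genes, as at HOXC4, HOXC5 and HOXC6, was not tested. The members and lists were chosen with earlier results of these data known. The HOX genes are named, with nearby genes that have a boundary peak and leading members of each list; a few genes are counted but not reported here by name. Others, such as HOTAIR, EVX2, CBX2 and the printed lncRNA and HOXC4 windows, were chosen after their values were seen. Alternatives used other windows, higher peaks, summits, overlap and starts alone.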

Additional observations from a re-analysis of the deposited data

How the results depend on the processing

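With 1 library, the limits are the few peaks per cluster and the unknown read depth. No paired analysis was possible because there was 1 S9.6 library and no test. Of 80 alternative values, 35 moved by more than 1.5 times, and the other 45 stayed within that. The values are counts, and starts alone covered 20 of the 39 HOX genes, so its counts are not over the same genes. As a share, starts alone gave 25% beside 35.9% in the main setting. With windows of 500 bp, boundary peaks were counted for 9 HOX genes, 1 HOXA gene, 0 HOXD genes, 1 gene of groups 1 to 3 and 2 of groups 9 to 13. With 2000 bp there were 23 HOX genes, 6 in HOXA, 8 in HOXB, 2 in HOXD, 4 in groups 1 to 3 and 8 in groups 9 to 13. With maximum coverage of 3 or more, HOXD had 0 genes, groups 4 to 8 had 5, and 12 genes had a peak over the span, and the clusters held 3 (HOXA), 6 (HOXB), 5 (HOXC) and 0 (HOXD) peaks. With peaks above the median total signal (beside 30.4% of all protein-coding genes) there were 9 HOX genes, 1 in HOXA, 0 in HOXD and 4 in groups 4 to 8 (groups 1 to 3 stayed at 2 and groups 9 to 13 had 3), 12 genes with a peak over the span, and 3, 6, 4 and 1 peaks over HOXA, HOXB, HOXC and HOXD. Summits, or at least 50% of the peak, in the window left 1 gene in groups 1 to 3. Starts alone gave 5 of 20 listed genes, 0 of 1 in HOXB, 2 of 2 in HOXC, 1 of 5 in groups 1 to 3, 3 of 7 in groups 4 to 8 and 1 of 8 in groups 9 to 13. Stricter windows and higher peaks leave fewer peaks by construction. Counting HOXC4, HOXC5 and HOXC6 once was chosen after seeing the data. In each of the settings that keep both gene ends, HOXB and HOXC had more genes with a boundary peak than HOXA and HOXD. This counts genes, not distinct peaks. The settings reuse the same peaks of 1 library, so they are not independent of each other. In each of them the Wilson intervals of the cluster shares overlap, so the clusters were not separated. With maximum coverage of 3 or more, summits, or at least 50% of the peak in the window, the 4 HOXC genes were HOXC13, HOXC4, HOXC5 and HOXC6. The last 3 share 1 peak, while the 2 HOXA genes, HOXA5 and HOXA11, have a peak each, so by distinct peaks HOXC did not exceed HOXA there.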
